A study of Mus musculus with 3 samples.

Results

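The genes described here encode the core machinery of programmed cell death, namely the BCL2 family, the caspases with their activators and inhibitors, and the death receptors with their adaptors. They were chosen by name, as a list of 38 genes, with earlier results of these data known. Their transcripts were measured in adipocytes exposed to an oxidant. Of the 38 genes, 34 had at least 1 probe set on the array that the annotation assigns to 1 gene only, out of 18194 genes with such a probe set. The other 4, Bax, Bcl2a1a, Bnip3l and Ripk1, were not measured under this rule. For Bcl2a1a and Bnip3l, the annotation lists 3 probe sets each, all shared with near copies or a pseudogene. No probe set was assigned to Bax or Ripk1 in the annotation used, and these genes were not analysed here.

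RNA came from 3T3-L1 adipocytes after 2 h with glucose oxidase, in 3 samples. 3T3-L1 is a clonal line of mouse fibroblasts that can be turned into fat cells in culture, and glucose oxidase produces hydrogen peroxide steadily as it oxidises the glucose of the medium. All samples carried the same treatment, and untreated arrays were not analysed here, so each value is a level after exposure and none is a change caused by it. Nothing in the sources states whether the 3 samples were separate cultures, and the SD between them may be technical. The arrays had median intensities of 126.9 to 127.6, and at most 25 of 45101 values were identical between any pair of them.

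Cells die by apoptosis along a mitochondrial route and a receptor route. In the mitochondrial route, BH3-only proteins relieve the block set by anti-apoptotic BCL2 proteins, BAX and BAK then open the outer mitochondrial membrane, and released cytochrome c assembles with APAF1 into the apoptosome, which activates caspase-9. In the receptor route, ligands such as FAS ligand and TNF engage death receptors, which recruit FADD and caspase-8 under the control of FLIP, IAP proteins and RIP kinases. Much of this machinery is present in healthy cells as inactive protein, and caspases are activated by dimerisation or cleavage rather than by their transcript level.

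Each level is the log2 of the deposited intensity, so that 1 unit is a 2-fold difference for a given probe set. Where a gene had several probe sets, the one with the highest mean gives its level, and since probe sets differ in how strongly they bind, levels of different genes were not ranked. Background was set at 7.58, the 95th percentile of the mean level of 83 probe sets whose genes encode taste, vomeronasal or odorant receptors. A probe set was taken as above background when it exceeded this on all 3 arrays, and a gene when any of its probe sets did. Of the 83 receptor probe sets themselves, 4 were above it, so a gene just above this limit need not be expressed.

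The cells carried markers of adipocytes. Of 10 measured adipocyte genes, 9 were above background, including the adiponectin gene Adipoq at 14.49 ± 0.03 (SD, n = 3) and Cidec, which encodes a lipid droplet protein, at 13.59 ± 0.01 (SD, n = 3). The exception was the leptin gene Lep. The tissue label names preadipocytes, and 8 of 10 genes of preadipocytes and fibroblasts also exceeded background, among them Dlk1 at 13.24 ± 0.10 (SD, n = 3). That value comes from a probe set of a type that can bind transcripts of other genes. The other probe set of Dlk1 was not above background, with a mean of 7.19. Col3a1 at 13.91, Vim at 13.59 and Col1a1 at 12.75 were measured on probe sets not of this type. The lowest of the 8 was Gata2 at 7.76, and Cd34 and Gata3 were not above background. Of markers for cells that the culture should not hold, 4 of 8 macrophage, 3 of 6 lymphocyte and 1 of 6 endothelial genes were above background. To set beside each of these marker counts, 54.4% of all measured genes were above background. The macrophage genes above it were the lysozyme gene Lyz2 at 11.19, Cd14 at 8.83, Csf1r at 8.70 and Fcgr1 at 7.98. The lymphocyte genes above it were Zap70 at 9.71, Cd3e at 8.27 and Cd8a at 7.62, and the endothelial gene was Kdr at 8.29. Zap70 was above background on 1 of 3 probe sets, by 2.09 on its lowest array. An unexpected gene can thus lie well above the limit. Cd8a was above background on 1 of 5 probe sets. That probe set of Cd8a is of a type that can bind transcripts of other genes, and it passed by 0.016 on its lowest array. Below background lay the pan-leukocyte gene Ptprc at 4.64 and the endothelial gene Pecam1 at 5.50, among others. Whether RNA of such cells contributed to the levels given here was not tested. In such bulk RNA, fewer cells of a type and less RNA per cell cannot be told apart, and the share of the signal that came from undifferentiated cells was not tested.

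Most of the death machinery gave signal. Of the 34 measured genes, 29 were above background, against 54.4% of all measured genes. The difference was wide only among genes with 1 probe set, and the counts for genes with more probe sets were nearer to the share of all such genes. Of the 10 genes with 1 probe set, 9 were above background, against 39.2% of all such genes. The count was 13 of 17 for genes with 2 or 3 probe sets, against 66.0% of all genes, and 7 of 7 for genes with 4 or more, against 83.6%. By probe sets, 50 of 85 were above background, against 45.1% of all probe sets. The genes were picked as well known members of the pathway, with earlier results of these data known. No test was made of these shares, and they are given as a description only. The 5 genes not above background were the BH3-only gene Bik, the inflammatory caspase gene Casp1, the apoptosome gene Apaf1, the FAS ligand gene Fasl and the TRAIL receptor gene Tnfrsf10b.

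All 4 measured anti-apoptotic BCL2 genes were above background. Each had 4 or more probe sets, and 83.6% of all such genes were above background, so this count is near that share. Mcl1, which encodes a short-lived protein that restrains BAK, was at 12.00, 11.89 and 11.88 in replicates 1, 2 and 3. Every one of its 6 probe sets was above background, the lowest at a mean of 9.91. Replicate 1 was the highest array in 5 of these 6 probe sets, a pattern noticed after the values were seen. Several of those 5, among them the lowest, are of a type that can bind transcripts of other genes. Bcl2l1, the gene for BCL-XL, was at 10.58, 10.61 and 10.55 in the same order, and Bcl2l2, the gene for BCL-W, at 9.50, 9.50 and 9.55. In each of these genes, 2 of 4 probe sets were above background. Bcl2 itself was at 8.80, 8.84 and 8.79 on its highest probe set. The second probe set of Bcl2 was at 8.71, 8.78 and 8.81, and the third at 8.12, 8.14 and 8.13. The remaining pair lay far below background, the lowest at a mean of 4.64. Replicate 2 was the highest array on the first and the third of these probe sets and replicate 3 on the second.

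**Figure D1:**
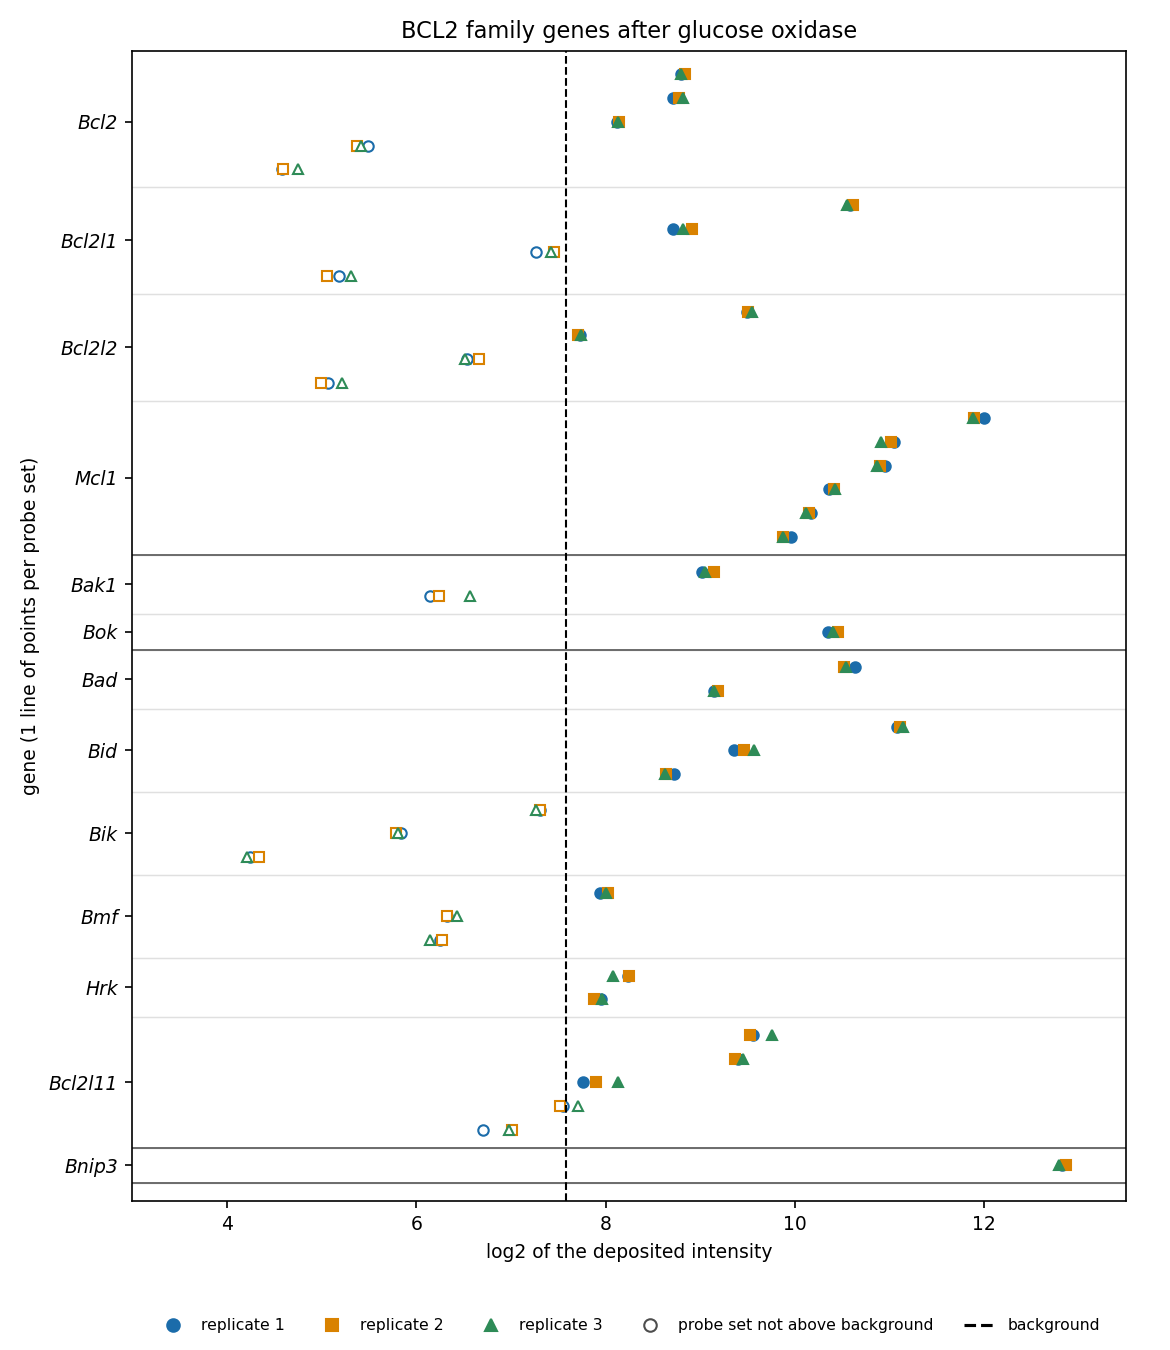
Log2 of the deposited intensity (x axis) for each probe set of the BCL2 family genes (y axis, 1 line of points per probe set), in 3 arrays of adipocytes treated with glucose oxidase. Dark lines divide the anti-apoptotic, pore-forming, BH3-only and BNIP3 genes, open symbols mark probe sets not above background, and the dashed line is background at 7.58. All 6 probe sets of Mcl1 lie to the right of the line and all 3 of Bik to its left.

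The genes of the pore-forming proteins were measured in part. Bak1, whose protein sits in the outer mitochondrial membrane, was at 9.02, 9.15 and 9.05, and its other probe set was not above background, with a mean of 6.32. Bok, which encodes a related protein that can act without BAX and BAK, was at 10.35, 10.46 and 10.41 on its only probe set. Both genes were highest in replicate 2, where they exceeded replicate 1 by 0.13 and 0.10. No value can be given for Bax.

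Among the BH3-only genes, which encode sensors of death signals, 5 of 6 were above background, against 54.4% of all measured genes. Bid, whose protein is cut by caspase-8 and so links the receptor route to mitochondria, was at 11.08, 11.12 and 11.14. Its other probe sets were above background as well. Bad, whose protein is held inactive by phosphorylation downstream of insulin and AKT, was at 10.64, 10.52 and 10.54, and its second probe set at 9.15, 9.19 and 9.15. The first of these was highest in replicate 1 and the second in replicate 2, so the order of the arrays was not shared between the probe sets.

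Bcl2l11, which encodes BIM, varied more between the arrays than any other measured gene of the list that was above background. Its highest probe set was at 9.55, 9.53 and 9.75 in replicates 1, 2 and 3, a mean of 9.61 ± 0.12 (SD, n = 3). Of all genes above background, 3.73% had a larger SD, and Bcl2l11 was singled out as the widest of 29. The second probe set was at 9.40, 9.37 and 9.45, with an SD of 0.040. Over all genes above background the median SD was 0.048. The third probe set was at 7.76, 7.90 and 8.13. Replicate 3 was the highest array on all 3 of these probe sets. The fourth, at 7.55, 7.52 and 7.71, crossed the background limit on replicate 3 alone, and the fifth was below it at a mean of 6.90.

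The remaining BH3-only genes lay near background. Hrk, known mainly from neurons, was at 8.23, 8.25 and 8.08, and its second probe set at 7.95, 7.88 and 7.96. Both probe sets exceeded background by less than 1 unit. Bmf, whose protein responds to loss of cell attachment, was at 7.94, 8.03 and 8.00. That value comes from a probe set of a type that can bind transcripts of other genes, and the other probe sets of Bmf were at means of 6.36 and 6.22, so the gene was above background only through it. Bik was not above background on any of its 3 probe sets, with its highest at 7.31, 7.31 and 7.26.

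Bnip3, which encodes a mitochondrial protein of mitophagy that is induced by low oxygen, was at 12.82, 12.86 and 12.79 on its only probe set. Its relative Bnip3l was not measured, as its probe sets are shared with a pseudogene.

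The 3 initiator caspases were all above background, against 54.4% of all measured genes. Casp8, the caspase of the receptor route, was at 10.17, 10.24 and 10.23. Casp9, the caspase of the apoptosome, was at 9.23, 9.26 and 9.24, with the second probe set at 8.14, 8.24 and 8.27 and the third below background at a mean of 7.30. Casp2, whose protein is activated in the PIDDosome after DNA damage or extra centrosomes, was at 9.25, 9.22 and 9.34. On the highest probe set of each gene, the range between the arrays was widest for Casp2, at 0.11.

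Casp6, an executioner caspase that cuts nuclear lamins, was at 9.75, 9.73 and 9.82, while its second probe set was far below background at a mean of 5.14.

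The inflammatory caspases were divided. Casp4, known in mice as caspase-11 and activated by bacterial lipopolysaccharide inside the cell, was at 9.15, 9.24 and 9.13. Casp12, whose protein is found at the endoplasmic reticulum, was measured by a pair of probe sets, and these gave 8.92, 8.93 and 8.89 and 8.93, 8.94 and 8.87. Casp1, which matures interleukin-1 beta in inflammasomes, was at 5.01, 5.14 and 5.02. Its only probe set lay more than 2 units below background on every array. Pycard, the inflammasome adaptor that recruits caspase-1, was not above background on any of its 3 probe sets either, with the highest at 6.56 ± 0.12 (SD, n = 3). Gsdmd, the gene for the pore protein that inflammatory caspases cut, was above it at 8.97 ± 0.02 (SD, n = 3).

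**Figure D2:**
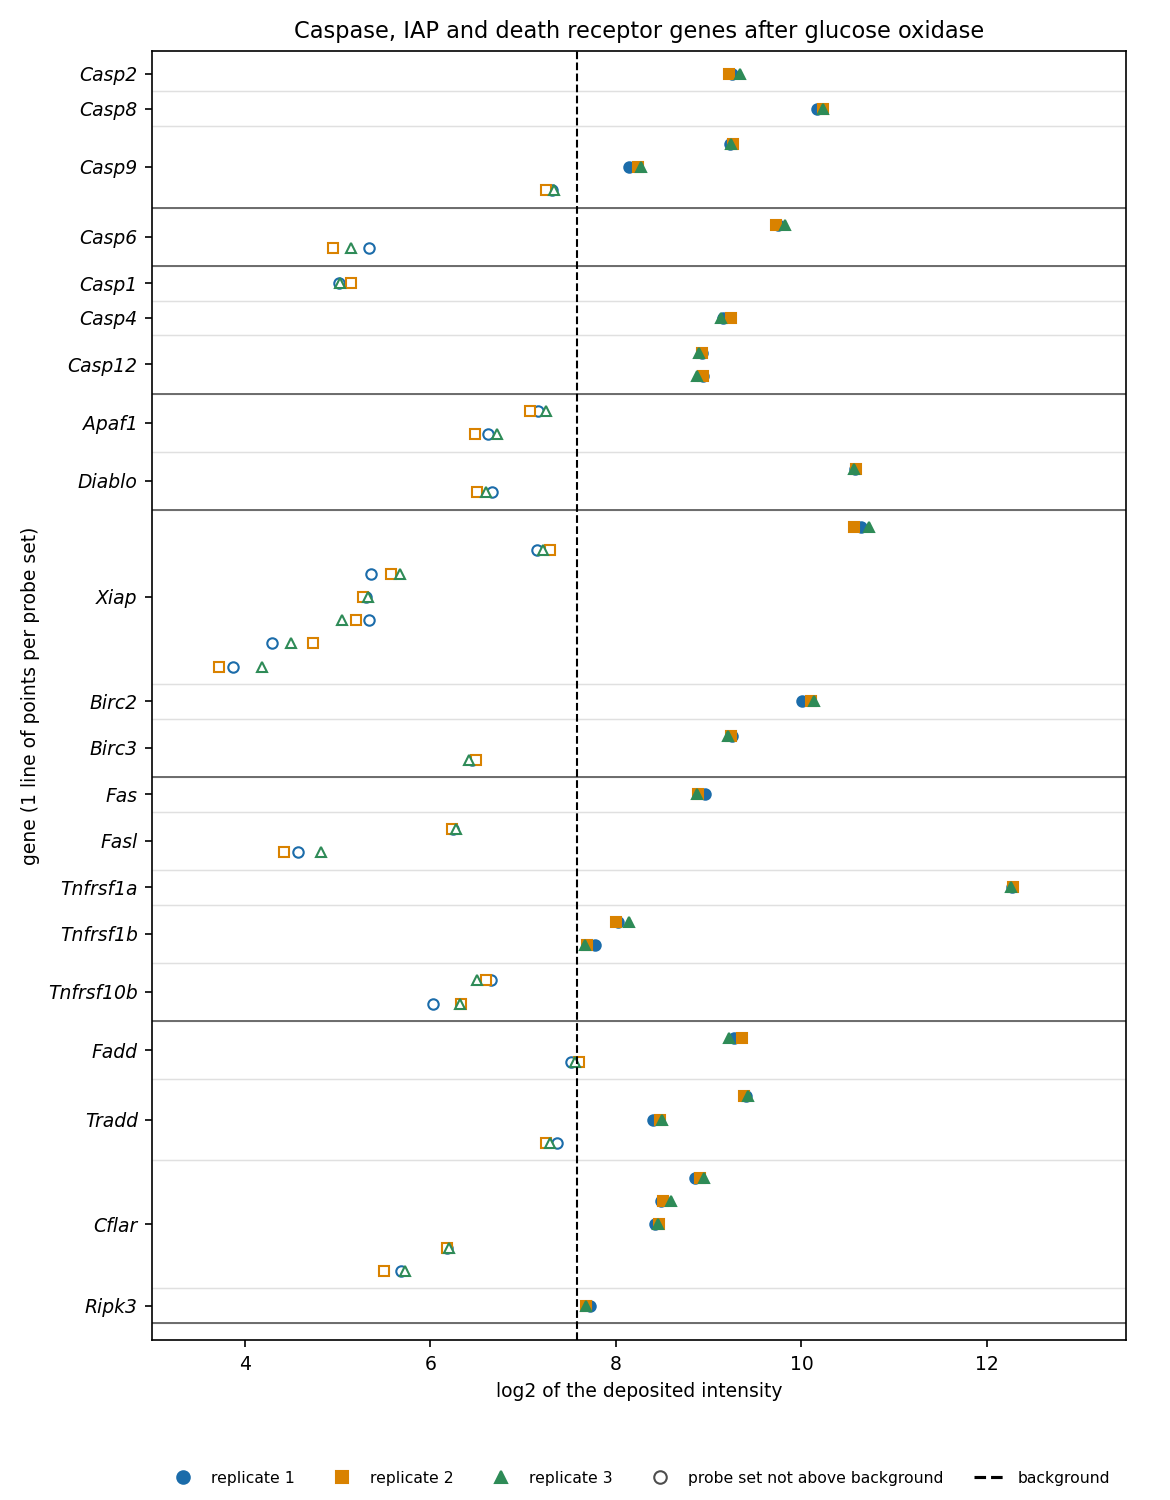
Log2 of the deposited intensity (x axis) for each probe set of the caspase, apoptosome, IAP, death receptor and adaptor genes (y axis, 1 line of points per probe set), in 3 arrays of adipocytes treated with glucose oxidase. Symbols and lines are as in the plot of the BCL2 family. Casp1, Apaf1, Fasl and Tnfrsf10b have no filled symbols, and Xiap has 1 probe set above background and 6 below.

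Downstream of mitochondria, the apoptosome gene and its partners differed. Apaf1 was at 7.16, 7.07 and 7.25 on its higher probe set and at 6.62, 6.48 and 6.72 on the other, and neither reached background on any array. A level below background on these probe sets does not show that the transcript was absent. Diablo, whose protein SMAC leaves mitochondria and binds IAP proteins, was at 10.58, 10.59 and 10.57, with its second probe set below background at a mean of 6.59. The cytochrome c gene Cycs was at 13.66 ± 0.02 (SD, n = 3), and Htra2, Endog and Aifm1, which encode other proteins released from mitochondria, were each above background. Both probe sets of Htra2 are of the type that can bind transcripts of other genes, so its call rests on these alone.

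All 3 IAP genes of the list were above background, against 54.4% of all measured genes. Xiap, which encodes a direct inhibitor of active caspases, was at 10.64, 10.57 and 10.73. Only 1 of its 7 probe sets was above background, and the others had means from 3.92 to 7.22. Which transcripts of Xiap each probe set detects was not examined. Birc2 and Birc3 encode cIAP1 and cIAP2, ubiquitin ligases that act at TNF receptor 1. Birc2 was at 10.01, 10.11 and 10.14, and Birc3 at 9.25, 9.24 and 9.21 on the higher of its probe sets. The lower probe set of Birc3 was not above background, with a mean of 6.45. Outside the list, Birc6, which encodes a very large IAP, was above background on 1 of 6 probe sets, and Birc5, the survivin gene of dividing cells, was not above it at 6.66 ± 0.10 (SD, n = 3).

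Of the 4 receptor genes of the list, 3 were above background, against 54.4% of all measured genes, and the ligand gene Fasl was not. Tnfrsf1a, the gene for TNF receptor 1, was at 12.27, 12.28 and 12.26, and of all genes above background 95.5% had a larger SD. Fas was at 8.97, 8.89 and 8.87. Tnfrsf1b, the gene for TNF receptor 2, which has no death domain, was at 8.02, 8.01 and 8.14, with a second probe set at 7.77, 7.69 and 7.67, close above the limit. Tnfrsf10b, the only mouse receptor that signals death from TRAIL, was at 6.66, 6.60 and 6.50, and its other probe set was lower. Of the ligands, Fasl was at 6.24, 6.23 and 6.28, and Tnf and the TRAIL gene Tnfsf10 were at 6.98 ± 0.12 and 6.76 ± 0.06 (SD, n = 3). None of these 3 ligand genes was above background on any of its probe sets.

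The 4 measured genes that carry the signal from death receptors were above background, against 54.4% of all measured genes. For Ripk1 no value can be given. Fadd, the adaptor of FAS and caspase-8, was at 9.28, 9.36 and 9.22. Tradd, the adaptor of TNF receptor 1, was at 9.41, 9.38 and 9.42, with a second probe set at 8.40, 8.47 and 8.49. Cflar, which encodes FLIP, an inhibitor of caspase-8 activation, was at 8.85, 8.91 and 8.95 on its highest probe set. Of its 5 probe sets, 3 were above background, and the lowest had a mean of 5.64. For Ripk3, the kinase of necroptosis, the values were 7.72, 7.68 and 7.67. This was the measured gene nearest to the limit among the 29, at least 0.09 above it on every array. Mlkl, the gene for the membrane protein that RIPK3 phosphorylates, was at 10.26 ± 0.03 (SD, n = 3).

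A second list of 38 genes of cell death, none of them in the list above, gave 35 measured genes. Of these, 24 were above background (68.6%), against 54.4% of all measured genes. By probe sets, 36 of 68 were above background, against 45.1% of all probe sets. Of 7 measured genes of the TNF receptor complex, 6 were above background, among them Tnfaip3, which encodes the ubiquitin-editing protein A20, at 9.89 ± 0.07 (SD, n = 3). Traf1 was the exception. Of the BH3-only genes that p53 can induce, Bbc3, which encodes PUMA, was at 9.52, 9.58 and 9.65, and Pmaip1, which encodes NOXA, at 3.11, 3.09 and 3.14. Of 5 measured ligands and receptors, only Tnfrsf12a, the receptor of TWEAK, was above background, at 11.06 ± 0.09 (SD, n = 3). The caspase substrate genes Parp1, Dffa and Lmnb1 were above background and the nuclease gene Dffb was not. Parp1 was above it on 3 of 4 probe sets, and Dffa and Lmnb1 on only 1 of 2 each. Casp14, a caspase of skin, was above it only on a probe set of a type that can bind other transcripts.

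Several genes had probe sets that differed in the background call, which does not by itself show a transcript present or absent. Of the 24 genes with more than 1 probe set, 14 had probe sets on both sides of background, against 46.5% of all genes with more than 1. Those 14 were Bcl2, Bcl2l1, Bcl2l2, Bak1, Bmf, Bcl2l11, Casp9, Casp6, Diablo, Xiap, Birc3, Fadd, Tradd and Cflar. All probe sets were above background for 6 genes, namely Mcl1, Bad, Bid, Hrk, Casp12 and Tnfrsf1b, and none was for Bik, Apaf1, Fasl and Tnfrsf10b.

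The arrays were close to each other for these genes. Over the 29 genes above background, the median SD was 0.047 on the log2 scale, and over all genes above background it was 0.048. With 2 arrays the values were lower and less alike. They were 0.029 against 0.038 without replicate 1, 0.039 against 0.043 without replicate 2 and 0.028 against 0.035 without replicate 3. An SD from 2 arrays is not directly comparable with an SD from 3. Over all 3 arrays, the smallest SD was 0.012, for Tnfrsf1a, and the largest 0.12, for Bcl2l11. After Bcl2l11, the largest were those of Hrk at 0.095 and Xiap at 0.077. Replicate 3 exceeded replicate 1 in 15 of the 29 genes, against 59.2% of all genes above background. Among the 13 genes with more than 1 probe set above background, 5 had all of these highest on the same array, namely Bcl2l1, Bcl2l2, Bcl2l11, Casp12 and Tradd, and this share was near the 37.0% of all such genes.

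**Figure D3:**
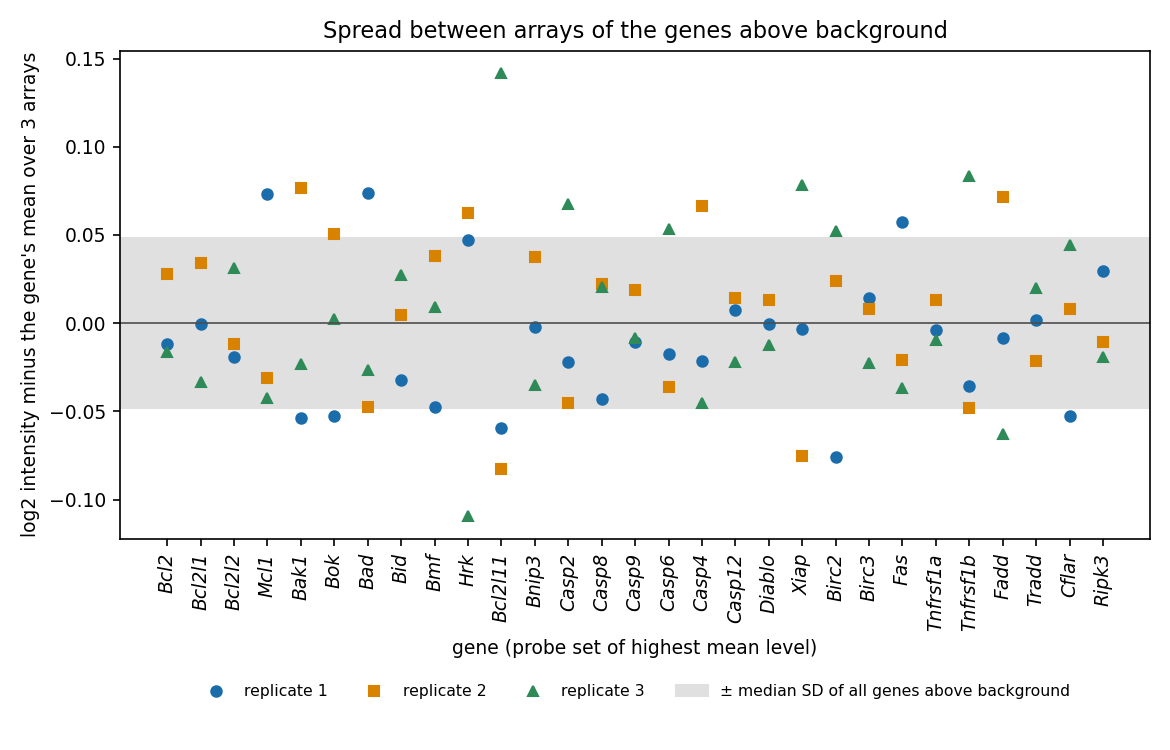
Difference of each array from the gene's mean log2 intensity (y axis) for the 29 genes above background (x axis), with 1 symbol per replicate and the median SD of all genes above background, 0.048, as a grey band. Bcl2l11 in replicate 3 lies farthest above 0, and Hrk in replicate 3 farthest below.

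The plot of level against spread sets the listed genes among all genes. At like levels their SDs lay within those of other genes, for genes far above background such as Bnip3 and for those below it such as Casp1.

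**Figure D4:**
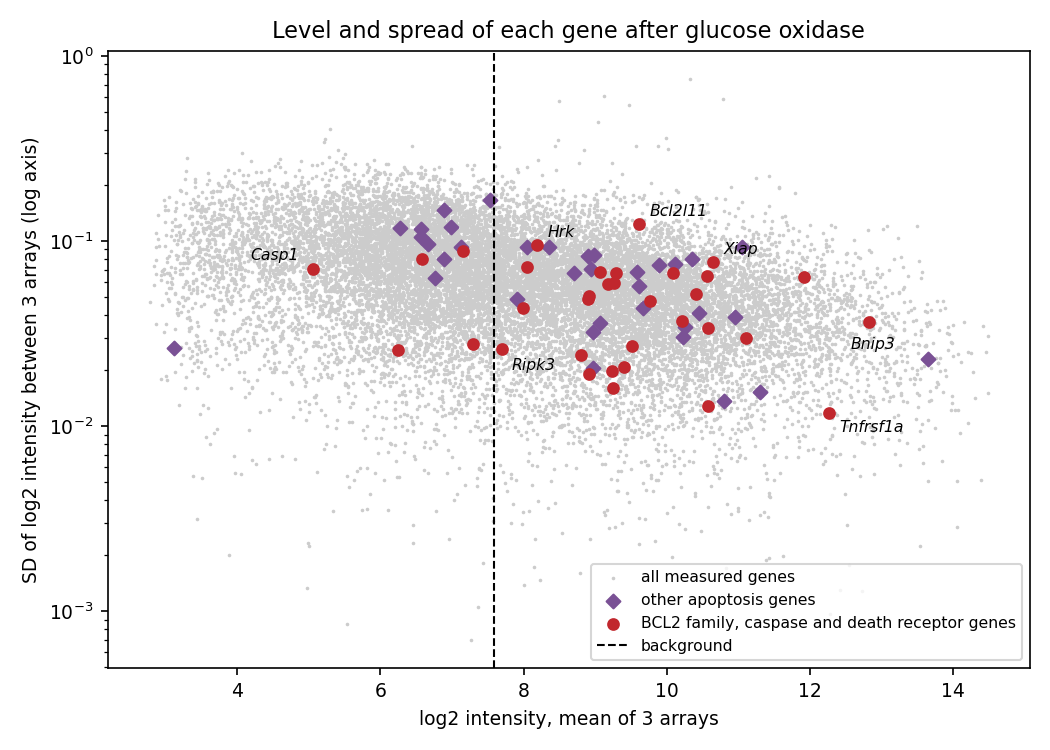
SD of the log2 intensity between 3 arrays (y axis, log scale) against the mean log2 intensity (x axis) for all measured genes in grey, the 34 BCL2 family, caspase and death receptor genes in red and 35 other apoptosis genes in purple, with background at 7.58 as a dashed line. The red points lie inside the grey cloud, with SDs from 0.012 for Tnfrsf1a to 0.12 for Bcl2l11.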

How the data were processed

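Transcripts were measured on mouse4302 Affymetrix arrays in 3 samples, which form 1 group by their titles. Background correction and normalization by the authors used the RMA method of affyPLM (version not given). The deposited values are probe set intensities on a linear scale, and log2 was taken of them. RMA usually returns log2 values, and the step that gave the linear scale is unknown, as are other arrays normalized with these. The number of arrays limits the precision.

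Of 45101 probe sets, 34958 name 1 gene in the platform annotation, 932 several and 9211 none. By Entrez identifier, 34754 of the first kind matched RefSeq (GRCm38.p6, used for names only). With 1 group there was no test. The members and lists were chosen with earlier results of these data known. Every member was named, as could be any gene of the second list. Alternatives were background at the 99th or 90th percentile or from 67 keratin-associated and defensin probe sets, the median of probe sets, leaving out those that can cross-hybridise (IDs ending in _x_at or _s_at), centred arrays, a linear coefficient of variation, no filter, and leaving out each array. The code that makes the calls was checked on simulated data, which says nothing of the calls themselves. Python 3.11.15, pandas 2.3.3, numpy 2.4.6 and matplotlib 3.10.9 were used.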

Additional observations from a re-analysis of the deposited data

How the results depend on the processing

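No paired analysis was possible because all samples belong to a single group. The count of 29 genes above background fell to 24 for medians of probe sets, losing Bcl2l2, Bak1, Bmf, Casp6 and Xiap. It was 26 with background at the 99th percentile, a log2 intensity of 8.05, without Bmf, Tnfrsf1b and Ripk3. It was 28 without Ripk3 when keratin-associated and defensin genes set the background at 7.91, and 28 without Bmf when probe sets that can cross-hybridise were left out. With background at the 90th percentile, with centred arrays and on leaving out each array in turn it was 29. The count of 14 genes with probe sets on both sides of background ranged from 12 to 16. The median SD of 0.047 lay between 0.028 and 0.039 without any given array, with 0.029 without replicate 1 and 0.028 without replicate 3, against 0.035 to 0.043 for all genes. The count of 3 lymphocyte markers was 1 with the median of probe sets. That setting moved 18 of the 34 levels by more than 1.5-fold, most of all Xiap, whose median level was 5.31. Signal near background limits what can be said of Hrk, Bmf, Tnfrsf1b and Ripk3. Genes farther above the limit are not free of doubt. The lymphocyte gene Zap70 passed it by 2.09 on its lowest array, on 1 of 3 probe sets.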
